A study of Mus musculus with 11 samples.

Results

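The sensors and transcription factors of the unfolded protein response (UPR) were followed in conventional type 1 dendritic cells (cDC1s) sorted from mouse B16 melanoma tumors. They are Xbp1, Ern1 (which encodes IRE1), Eif2ak3 (PERK), Atf6, Atf6b, Creb3, Creb3l2 and the proteases Mbtps1 and Mbtps2. These 9 genes, of 24421 in the count table, were listed for their role by a selection that knew their fold changes in these same pools. Their differences between genotypes are therefore described here, and their p-values give no independent support. All 9 passed the filter on low values, as did 10951 genes in all.

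The RNA of 11 pools was sequenced, each pool holding cDC1s from 2 to 4 tumor-bearing C57BL/6 mice. The study used young adult litters with mice of both sexes, and the sex of the mice in a pool is not given in the sources used here. The 4 control pools came from mice without Cre recombinase. In control replicates 1 to 3 these carried XBP1 fl/fl alleles, and in control replicate 4 they carried XBP1 fl/fl and IRE1 fl/fl alleles. The 4 XBP1ΔDC pools came from XBP1 fl/fl mice with CD11c-CRE. The 3 XBP1ΔDCIRE1truncDC pools came from mice with XBP1 fl/fl, IRE1 fl/fl and CD11c-CRE. Floxed Xbp1 alleles were thus present in every pool, controls included. The CD11c promoter drives Cre in CD11c-expressing cells and not in cDC1s alone. Cre deletes exon 2 of Xbp1 and, in the double line, exons 20 and 21 of Ern1, which leaves a truncated IRE1 without its RNase domain. Pools contained between 21089065 and 26843486 counts. Levels are normalized CPM, counts scaled to library size by the trimmed mean of M-values (TMM), and levels compared between genes are also divided by exon length (RPKM). A gene was called changed at an adjusted p under 0.05 with a fold change above 1.5, in edgeR's quasi-likelihood test over all 10951 genes.

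The endoplasmic reticulum (ER) senses unfolded proteins through 3 membrane proteins. IRE1 is a kinase and RNase that cuts a short stretch out of the Xbp1 mRNA, and the rejoined mRNA encodes the transcription factor XBP1s, which drives genes of folding, secretion and degradation. PERK phosphorylates eIF2α and so lowers translation while ATF4 is made, and ATF6 moves to the Golgi, where the site 1 and site 2 proteases free its transcription factor domain. CREB3 and CREB3L2 are membrane-bound factors freed by the same proteases. cDC1s, which cross-present antigens to CD8+ T cells, are known for constant IRE1 activity.

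The stretch of Xbp1 mRNA that IRE1 removes is shown because it links the deleted genes of both lines. It was read from the Xbp1-201 transcript of GENCODE vM21 (GRCm38, plus strand, exon 4, chr11:5524279-5524304). The 26 removed bases are in capitals, and the cuts fall within the cleavage sites CCGCAG and CTGCAG.
Xbp1 splice stretch: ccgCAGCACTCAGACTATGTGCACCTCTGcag
Exon 2, the floxed exon, lies upstream of it and holds 97 of the 2129 bases of this transcript (4.56%). The floxed exons of Ern1 hold 192 of the 6946 bases of Ern1-201 (2.76%). A count per gene sums over all exons, so neither deletion nor splicing can be read from these counts, and the levels below are those of all Xbp1 or Ern1 mRNA.

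The promoters of the 3 genes that were called lower in XBP1ΔDC cDC1s are shown for their letters, as RefSeq gives them on GRCm38.p6, from 250 bases before to 50 bases after the start. Capitals mark CCAAT, on either strand (CCAAT or ATTGG), and ACGT, both chosen after the sequences had been seen.
Creb3l2 promoter (chr6:37442099-37442398, minus strand): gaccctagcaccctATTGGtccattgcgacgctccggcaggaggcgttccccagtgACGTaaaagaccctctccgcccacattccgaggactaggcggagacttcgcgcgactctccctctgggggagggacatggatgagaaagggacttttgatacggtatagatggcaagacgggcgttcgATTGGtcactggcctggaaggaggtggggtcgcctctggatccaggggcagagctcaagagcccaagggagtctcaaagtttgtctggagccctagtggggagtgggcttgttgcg
Eif2ak3 promoter (chr6:70844265-70844564, plus strand): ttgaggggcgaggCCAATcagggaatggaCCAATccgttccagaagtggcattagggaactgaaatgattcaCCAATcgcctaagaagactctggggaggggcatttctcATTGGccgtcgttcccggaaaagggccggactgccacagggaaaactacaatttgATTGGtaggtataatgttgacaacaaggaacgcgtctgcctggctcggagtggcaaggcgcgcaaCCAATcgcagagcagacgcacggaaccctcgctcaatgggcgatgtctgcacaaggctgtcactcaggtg
Xbp1 promoter (chr11:5520391-5520690, plus strand): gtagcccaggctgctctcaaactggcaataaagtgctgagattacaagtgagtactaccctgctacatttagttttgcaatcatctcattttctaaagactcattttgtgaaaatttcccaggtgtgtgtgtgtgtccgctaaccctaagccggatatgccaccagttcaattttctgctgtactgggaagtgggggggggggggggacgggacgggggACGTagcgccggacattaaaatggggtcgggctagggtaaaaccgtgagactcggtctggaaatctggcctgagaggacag
Promoters of 8 of the 9 genes were matched, all but Atf6. The ER stress response element (ERSE), CCAAT followed after 9 bases by CCACG, was in none of the 8, against 0.119% of all 32851 promoters of that length, when both strands were searched. ERSE-II, ATTGG followed after 1 base by CCACG, was also in none, against 0.0365% of all, and so was the UPR element (UPRE, TGACGTGG), against 0.676%. These windows are short, and no match says only that these letters are not in them. CCAAT, which is also part of ERSE, was in 3 of the 8 promoters and in 37.4% of all. Eif2ak3 held it 6 times, and 0.0791% of all promoters held it as often or more. Creb3l2 held it 2 times, which 11.7% of promoters reached. ACGT, part of UPRE, was in 4 of the 8 promoters (Atf6b, Xbp1, Creb3 and Creb3l2) and in 30.9% of all.

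Markers of cDC1s were high in every pool. The summed level of 10 markers, among them Xcr1, Clec9a and Irf8, ran from 8309 to 10030 CPM, and 0 of the 10 were called in any of the 3 comparisons. Itgae was lower in XBP1ΔDC and the double line, by -0.26 and -0.24 on the log2 scale (edgeR unadjusted p = 0.00530 and 0.0131). Zbtb46 was higher in the double line, by 0.30 against control and 0.25 against XBP1ΔDC (edgeR unadjusted p = 0.00583 and 0.0141), without overlap with either group. No other of the 10 had an unadjusted p under 0.05. Melanoma markers (7 genes) summed to between 8.96 and 60.9 CPM in controls, 12.2 and 64.7 CPM in XBP1ΔDC and 8.74 and 11.02 CPM in XBP1ΔDCIRE1truncDC pools. Pmel and Dct had log2 fold changes of -1.99 and -2.45 in the double line against control, and Mitf of 0.95, each with an edgeR unadjusted p under 0.05 and none called. Fibroblast or endothelial markers (5 genes) summed to between 8.10 and 14.9 CPM in controls, with a median of 10.5 CPM, and to between 7.96 and 31.9 CPM in XBP1ΔDC, with a median of 24.4 CPM. Their sums in the double line lay between 9.08 and 12.0 CPM. Col1a1 was 2.63 higher on the log2 scale in XBP1ΔDC than in control (edgeR unadjusted p = 0.0192, adjusted p = 0.479), and all 3 tested genes had an unadjusted p under 0.05 between the lines, with Col1a1 and Col3a1 lower and Pecam1 higher in the double line. The XBP1ΔDC pool with the lowest sum, replicate 2 at 7.96 CPM, held 152 CPM of Xbp1, 23.4 CPM of Eif2ak3 and 1.69 CPM of Creb3l2, each below every control. That is 1 pool, and nothing about a cause is read from it. The median sums of macrophage or monocyte markers were 33.3, 43.6 and 48.2 CPM in control, XBP1ΔDC and double-line pools, and the highest was 98.0 CPM. For cDC2 markers the medians were 36.5, 36.2 and 45.9 CPM, and the highest was 68.1 CPM. T cell markers summed to at most 6.92 CPM, B or plasma cell markers to 1.99 CPM with Jchain at 0 in every pool, and neutrophil markers to 1.56 CPM. No tested marker of any list was called, and the part of other cells in the results below was not tested.

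In control cDC1s, Xbp1 had the highest level per length of the 9 genes, 78.4 RPKM with a range of 75.2 to 83.4 over the 4 pools. Atf6b followed at 53.0 RPKM (47.4 to 57.9), Creb3 at 42.1 RPKM (39.9 to 43.6) and Atf6 at 18.3 RPKM (15.96 to 20.4). Mbtps1, at 9.51 RPKM (8.68 to 10.02), and Eif2ak3, at 7.78 RPKM (7.12 to 8.66), lay next to each other, with pools that barely missed overlapping. Ern1, at 1.71 RPKM (1.20 to 2.32), and Creb3l2, at 1.38 RPKM (1.16 to 1.69), overlapped. Mbtps2 was lowest, at 0.431 RPKM (0.406 to 0.445). The nuclease IRE1 was thus encoded by far less mRNA per length than its substrate Xbp1. In XBP1ΔDC pools the order was the same except that Creb3l2, at a mean of 0.274 RPKM, was below Mbtps2 at 0.452 RPKM, and the double line shared that order, with Creb3l2 at 0.322 RPKM and Mbtps2 at 0.538 RPKM.

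**Figure D1:**
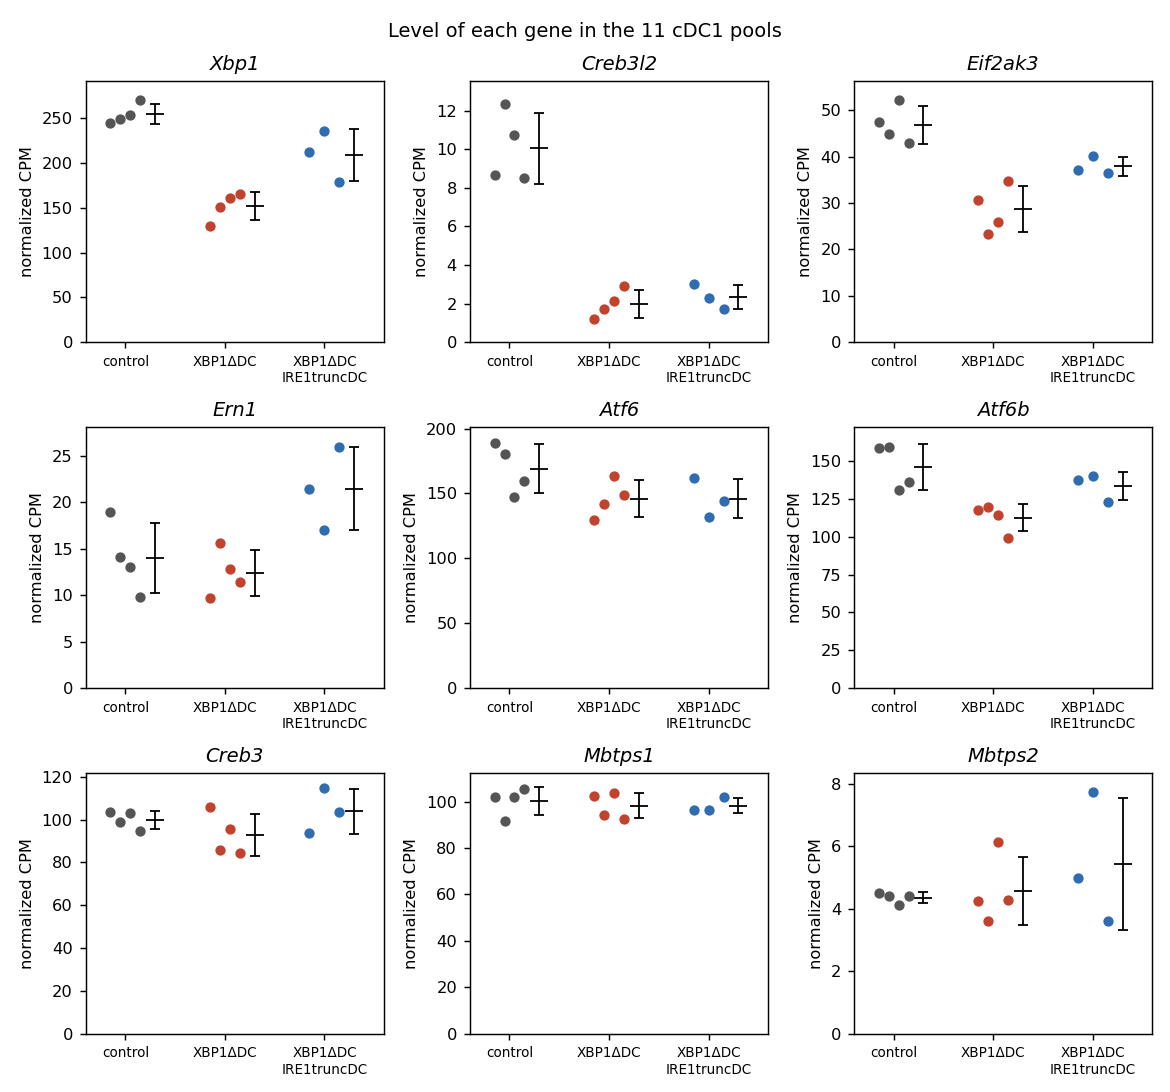
Normalized CPM (vertical axes, from 0) of each of the 9 genes in the 11 pools, grouped by genotype on the horizontal axes; points are pools and the bar beside them is the mean ± SD of 4, 4 and 3 pools. Creb3l2 lies at 8.48 CPM or above in all controls and at 3.01 CPM or below in all deficient pools, while the 3 groups of Xbp1 and of Eif2ak3 do not overlap.

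Total Xbp1 mRNA was lower in XBP1ΔDC cDC1s, although it was far from absent. The controls held 244, 249, 254 and 271 CPM, and the XBP1ΔDC pools held 130, 152, 161 and 165 CPM. XBP1ΔDCIRE1truncDC pools held 212, 236 and 179 CPM, between the other groups and overlapping neither. In XBP1ΔDC, Xbp1 fell by 40.3% against control, a log2 fold change of -0.74 (SE 0.10, edgeR adjusted p = 0.00167), and it was called. In the double line the log2 fold change was -0.28 (95% interval -0.51 to -0.06, edgeR adjusted p = 0.324), and it was not called. Between the lines, Xbp1 was 0.46 higher on the log2 scale in the double line (SE 0.10, edgeR unadjusted p = 0.000746, adjusted p = 0.234), also not called. DESeq2 gave this difference an adjusted p under 0.05, and it was under the fold limit there too. Because whole pools were measured, fewer cells with the mRNA and less mRNA per cell cannot be told apart.

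Ern1 lay highest in the line that carries its truncating deletion. Controls held 19.0, 14.1, 13.1 and 9.82 CPM, the lowest being the pool with IRE1 fl/fl alleles, and XBP1ΔDC pools held 9.74, 15.6, 12.9 and 11.4 CPM. The double line held 21.4, 17.0 and 25.99 CPM, above every XBP1ΔDC pool but overlapping the controls. None of these differences was called. Against XBP1ΔDC the log2 difference was 0.79 (95% interval 0.30 to 1.28, edgeR adjusted p = 0.491), and against control it was 0.62 (95% interval 0.13 to 1.11, edgeR adjusted p = 0.322). XBP1ΔDC and control pools differed by -0.17 (95% interval -0.64 to 0.29). Ern1 also varied more among pools of a group than most genes did. Its SD within groups was 0.33 on the log2 scale, at percentile 70.5 of all genes tested, whose median was 0.22.

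Eif2ak3, which encodes PERK, was lower in XBP1ΔDC cDC1s. Control pools held 47.4, 44.9, 52.2 and 42.9 CPM and XBP1ΔDC pools 30.6, 23.4, 25.99 and 34.7 CPM. The double line held 37.1, 40.2 and 36.5 CPM, so that the 3 groups did not overlap and the double line was in the middle. Eif2ak3 fell by 38.7% in XBP1ΔDC, a log2 fold change of -0.71 (SE 0.12, edgeR adjusted p = 0.0151), and was called. This call was lost without control replicate 1 (edgeR adjusted p = 0.0537), control replicate 3 (0.0551) or XBP1ΔDC replicate 3 (0.0658), with the log2 fold change still at -0.70, -0.65 and -0.66. In the double line the log2 fold change against control was -0.30 (95% interval -0.59 to -0.01, edgeR adjusted p = 0.414) and was not called. Against XBP1ΔDC the double line was 0.40 higher on the log2 scale (95% interval 0.12 to 0.69, edgeR adjusted p = 0.661), which was not called either. Exons of Gm43292, a gene not in the count table, cover 8.05% of the Eif2ak3 exon bases on the opposite strand.

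The ATF6 pair gave smaller differences. Atf6, the stress-activated factor, held 189, 180, 147 and 160 CPM in controls, 130, 142, 164 and 148 CPM in XBP1ΔDC and 162, 132 and 144 CPM in the double line, and all groups overlapped. Its log2 fold changes against control were -0.21 in each line, with 95% intervals of -0.43 to 0.01 and -0.45 to 0.02. Atf6b, its paralog, held 159, 160, 131 and 136 CPM in controls against 117, 120, 114 and 99.3 CPM in XBP1ΔDC, without overlap, and 137, 140 and 123 CPM in the double line. Its log2 fold change in XBP1ΔDC was -0.38 (SE 0.09, edgeR adjusted p = 0.106) and was not called. DESeq2 gave this change an adjusted p under 0.05, with the fold change under the limit. In the double line it was -0.13 (95% interval -0.35 to 0.08).

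Creb3l2 had the widest difference of the 9 genes, in both deficient lines. Control pools held 8.65, 12.3, 10.7 and 8.48 CPM, from 190 to 333 counts a pool. XBP1ΔDC pools held 1.22, 1.69, 2.14 and 2.91 CPM, from 27 to 75 counts, and the double line held 3.01, 2.28 and 1.74 CPM, from 40 to 77 counts. The highest deficient pool was well below the lowest control, and the deficient lines overlapped each other. In XBP1ΔDC, Creb3l2 was 5.02 times lower than in control, a log2 fold change of -2.33 (SE 0.30, edgeR adjusted p = 0.00158). In XBP1ΔDCIRE1truncDC it was 4.28 times lower, a log2 fold change of -2.10 (SE 0.33, edgeR adjusted p = 0.0134). That second call was lost without control replicate 2 (edgeR adjusted p = 0.0668), XBP1ΔDCIRE1truncDC replicate 2 (0.0569) or replicate 3 (0.0730), while the log2 fold change was -1.98, -2.08 and -1.92. The difference between the lines was 0.23 on the log2 scale, with a 95% interval of -0.46 to 0.92, which leaves room for a difference of either sign.

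Creb3, the founding factor of the same family, was not called in any comparison. It held 94.6 to 104 CPM in controls, 84.3 to 106 CPM in XBP1ΔDC and 93.5 to 114 CPM in the double line. The log2 fold changes against control were -0.11 (95% interval -0.30 to 0.09) and 0.06 (95% interval -0.15 to 0.27). Exons of Tln1 and Gba2 on the opposite strand cover 15.2% and 5.61% of its exon bases, and reads there cannot be told apart without strand.

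The genes of the activating proteases differed little. Mbtps1, the site 1 protease, held 91.4 to 106 CPM in controls, 92.7 to 104 CPM in XBP1ΔDC and 96.2 to 102 CPM in the double line. Both of its log2 fold changes against control were -0.03, with 95% intervals of -0.18 to 0.13 and -0.20 to 0.14, which leave out a change of 1.5-fold. Its SD within groups, 0.08 on the log2 scale, was at percentile 4 of all genes tested. Mbtps2, the site 2 protease, was scarce, at 4.11 to 4.49 CPM in controls, 3.61 to 6.12 CPM in XBP1ΔDC and 3.61 to 7.73 CPM in the double line. Its intervals were wide, from -0.51 to 0.65 and from -0.30 to 0.94 on the log2 scale. Exons of Yy2, on the same strand, cover 28.4% of its exon bases, so its counts are uncertain.

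Counted over the list, 3 of the 9 genes were called in XBP1ΔDC against control, all of them lower. Of all genes tested 0.493% were called there, and 0.466% were called lower. An unadjusted p under 0.05 was found for 4 of the 9 genes and 7.62% of all. The median log2 fold change was -0.21 over the 9 genes and 0.00 over all genes tested. In XBP1ΔDCIRE1truncDC against control, 1 of the 9 was called, against 0.21% of all genes (0.146% lower and 0.0639% higher), and the medians were -0.13 and 0.00. An unadjusted p under 0.05 was found for 4 of the 9 genes there, with Ern1 higher and the others lower, and for 11.2% of all. None of the 9 was called between the deficient lines by edgeR, DESeq2 or voom, although 4 had an unadjusted p under 0.05 in each of the 3 tools. In DESeq2, Xbp1 had an adjusted p under 0.05 there, with its fold change under the limit. Of all genes, edgeR called 0.0731%, and 5.29% had an unadjusted p under 0.05. Groups did not overlap for 4 of the 9 genes in XBP1ΔDC against control, all lower, where 5.31% of all genes were without overlap and 3.67% were so and lower. The same held for 3 of the 9 in the double line against control (all lower; 10.1% of all genes, 5.81% lower) and for 4 of the 9 between the lines (all higher in the double line; 6.07% of all genes, 3.11% higher). Nothing is read from these counts, since the list was made with the fold changes known, and both comparisons with control share the 4 control pools.

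**Figure D2:**
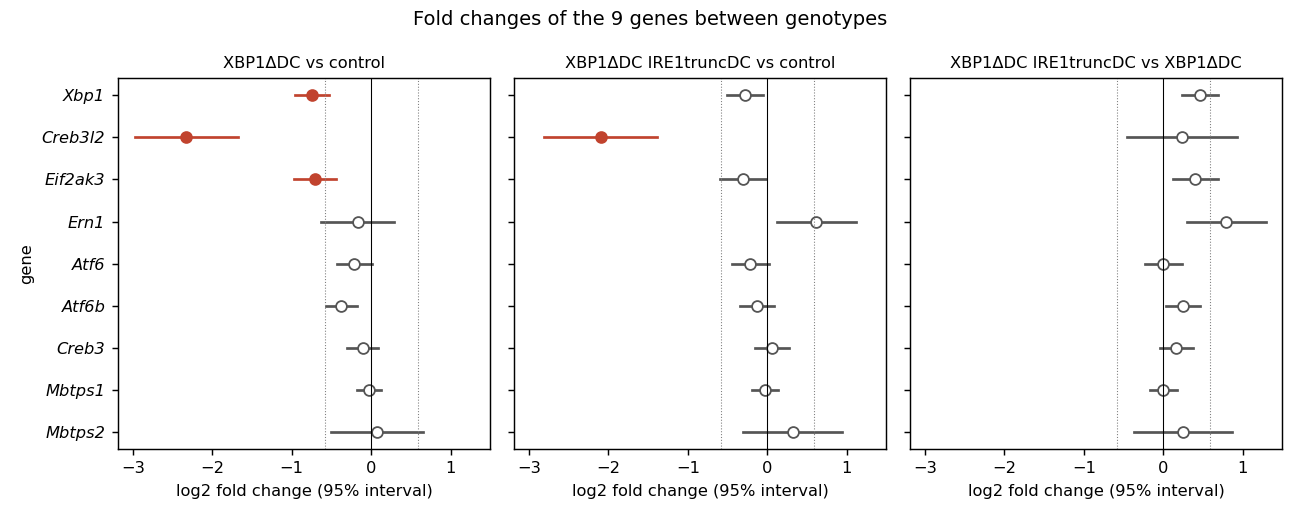
Log2 fold changes of the 9 genes (horizontal axes; points, with 95% intervals as lines) in the 3 comparisons; filled red points were called, and dotted lines mark a fold change of 1.5 in either direction. Creb3l2 is near -2 against control in both lines, and Xbp1 and Eif2ak3 are called in XBP1ΔDC alone.

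Within groups, the 9 genes varied with each other to different degrees. The deviations of 2 genes from their group means, over the 11 pools, correlated between -0.62 and 0.67 across the 36 pairs, with a median of 0.03. Xbp1 and Creb3l2 correlated at 0.65 and Xbp1 and Eif2ak3 at 0.08. These coefficients rest on 11 pools with 3 means removed and share each pool's normalization, so they are given as a description.

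For each called gene, the 3 genes with the most similar log2 CPM over the 11 pools were sought. For Xbp1 these were Gm2a, a lysosomal lipid-transfer protein (r = 0.967), Mlec, an ER lectin (0.952), and Erp44, an ER thioredoxin-family protein (0.938). For Creb3l2 they were the calcium-binding nucleobindins Nucb1 (0.969) and Nucb2 (0.953) and the disulfide isomerase Txndc5 (0.953). Brat1, a DNA damage response regulator (0.934), the sulfhydryl oxidase Qsox1 (0.930) and the degradation factor Edem1 (0.908) were nearest to Eif2ak3. The coefficients hold the differences between genotypes, and on deviations from the group means they were lower, from 0.479 for Xbp1 with Erp44 to 0.887 for Eif2ak3 with Brat1. Like Xbp1, Gm2a, Mlec and Erp44 were called lower in XBP1ΔDC and not in the double line, and none of these was called between the lines. The double-line pools of Gm2a, Mlec and Erp44 still lay below all controls. Their log2 fold changes against control were -0.32, -0.31 and -0.40 (edgeR adjusted p = 0.161, 0.170 and 0.0546). Nucb1, Nucb2 and Txndc5 were called lower in both lines, as was Creb3l2. Of the genes nearest to Eif2ak3, only Qsox1 was called lower in XBP1ΔDC. Brat1 had a log2 fold change of -0.36 there (edgeR adjusted p = 0.350), and Edem1 of -0.35 (edgeR adjusted p = 0.0407), under the fold limit. Since the genes were picked for their likeness over all pools, genotype differences included, these shared calls follow largely from the choice.

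Of 64 further genes of the pathway, 60 were tested. In XBP1ΔDC 4 of them were called, all lower (6.67% of those tested, against 0.493% of all genes), and in the double line 4 were called, 1 lower and 3 higher (6.67%, against 0.21% of all genes). The lists were chosen with earlier results of these data known. Between the lines 0 of the 60 were called by edgeR, 12 had an unadjusted p under 0.05 (5.29% of all genes did), and DESeq2 and voom also called 0. The medians of the 60 were 0.01 and 0.03 on the log2 scale against control, and 0.13 between the lines, where the median of all genes tested was 0.00.

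Among 20 partners and regulators of the sensors, 3 were called lower in XBP1ΔDC (15%, against 0.466% of all genes). Dnajb9, a chaperone partner that binds IRE1, held 27.4 to 30.8 CPM in controls and 9.42 to 15.99 CPM in XBP1ΔDC, a log2 fold change of -1.17 (edgeR adjusted p = 0.00427). Sec61a1, the pore of the translocon, changed by -0.69 on the log2 scale in XBP1ΔDC (edgeR adjusted p = 0.00167) and by -0.67 in the double line (edgeR adjusted p = 0.0100), and was called in both. The second of these calls was lost without XBP1ΔDCIRE1truncDC replicate 1 (edgeR adjusted p = 0.0622) or replicate 3 (0.0581). Pdia5, a disulfide isomerase that acts on ATF6, changed by -0.86 in XBP1ΔDC (edgeR adjusted p = 0.0333), a call that leaving out any of control replicates 1, 2 and 4 or XBP1ΔDC replicates 1, 3 and 4 ended (edgeR adjusted p from 0.0616 to 0.115). In the double line Dnajb9 and Pdia5 had log2 fold changes of -0.95 and -0.94 (edgeR adjusted p = 0.0556 and 0.0551) and were not called.

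Hspa5 (BiP), the chaperone that holds all 3 sensors inactive, was higher in the deficient pools. It held 1631 to 1718 CPM in controls, 2134 to 2272 CPM in XBP1ΔDC and 2406 to 3351 CPM in the double line, with no overlap between any groups. It rose by 0.76 on the log2 scale in the double line (SE 0.09, edgeR adjusted p = 0.00314) and was called. In XBP1ΔDC its log2 fold change of 0.40 (edgeR adjusted p = 0.0444) was under the fold limit. Rtcb, the ligase that rejoins Xbp1 mRNA, held 187 to 215 CPM over all pools, with log2 fold changes of -0.05 and -0.13 against control.

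**Figure D3:**
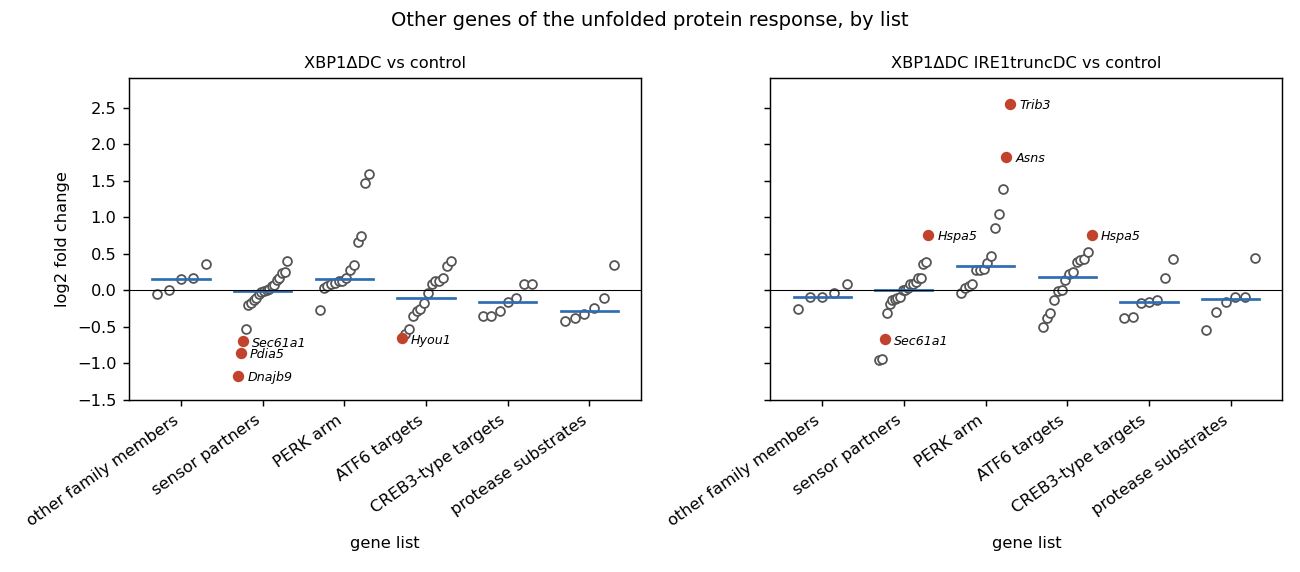
Log2 fold changes against control (vertical axes) of the tested genes of 6 lists (horizontal axes) in XBP1ΔDC on the left and XBP1ΔDCIRE1truncDC on the right; each point is a gene, named and filled red where called, and blue lines are list medians. Genes on more than 1 list appear on each, as Hspa5 does. The PERK arm reaches the highest values, with Trib3 at 2.55 in the double line.

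Downstream of PERK, 13 of 14 genes had a log2 fold change above 0 in each line, with medians of 0.15 in XBP1ΔDC and 0.34 in the double line. Which eIF2α kinase or factor a change on this list comes from was not tested. None of the 14 was called by edgeR in XBP1ΔDC, where 5 had an unadjusted p under 0.05, and 2 were called in the double line. For all genes, 7.62% had such a p in XBP1ΔDC and 0.21% were called in the double line. Of the 5, Atf4, Ddit3, Trib3 and Asns were higher, and Ppp1r15b, a phosphatase subunit that reverses eIF2α phosphorylation, was lower, with a log2 fold change of -0.27 (edgeR adjusted p = 0.358). Trib3, a pseudokinase induced through ATF4 and CHOP, held 1.78 to 3.56 CPM in controls, 6.99 to 9.60 CPM in XBP1ΔDC and 8.01, 32.2 and 7.61 CPM in the double line. Asns, asparagine synthetase, held 3.57 to 10.4 CPM in controls, 16.9 to 25.0 CPM in XBP1ΔDC and 18.7, 41.3 and 19.7 CPM in the double line. In both genes XBP1ΔDCIRE1truncDC replicate 2 stood far above the other pools, and the deficient pools did not overlap the controls. Their log2 fold changes in the double line were 2.55 and 1.83 (edgeR adjusted p = 0.0396 for each). Without that pool they were 1.53 (edgeR adjusted p = 0.0812) for Trib3 and 1.36 (edgeR adjusted p = 0.116) for Asns. The call of Trib3 was also lost without any of the 4 control or 4 XBP1ΔDC pools, and that of Asns without any other pool except control replicate 3. The highest edgeR adjusted p among these was 0.137 for Trib3 and 0.123 for Asns. Each gene was called in 8 of 21 other settings. Both calls were also lost in voom (adjusted p = 0.164 and 0.0593), with only the 2 groups in the edgeR fit (adjusted p = 0.128 for each) and with the replicate number as a block (0.208 and 0.103), and that of Trib3 with the newer quasi-likelihood method of edgeR (adjusted p = 0.0677). In XBP1ΔDC their values were 1.60 (edgeR adjusted p = 0.191) and 1.47 (edgeR adjusted p = 0.0523). Atf4 itself had log2 fold changes of 0.35 and 0.30 and Ddit3, which encodes CHOP, of 0.67 and 0.85 (edgeR adjusted p at least 0.100), and neither was called.

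Of 14 ATF6 targets, 1 was called in each line against control (7.14%, against 0.493% and 0.21% of all genes). Hyou1, an ER chaperone of the HSP70 family, held 106 to 120 CPM in controls and 65.8 to 80.6 CPM in XBP1ΔDC, where it fell by 0.66 on the log2 scale (edgeR adjusted p = 0.00341). The gene called in the double line was Hspa5, which was higher. The study reports that known XBP1 targets, chaperones among them, were lower in both lines. Which factor a change on this list comes from was not tested. Herpud1, of ER-associated degradation, had log2 fold changes of 0.09 in XBP1ΔDC and 0.44 in the double line (edgeR adjusted p = 0.0736). All 14 had a higher fitted level in the double line than in XBP1ΔDC. The difference was 0.13 to 0.43 on the log2 scale, with a median of 0.22, although edgeR called 0 of them. Within the double line, replicate 2 was the highest pool for all of these genes but Herpud1 and Syvn1. Creld2 held 74.6, 118 and 67.5 CPM there, against a mean of 74.6 CPM in XBP1ΔDC. Calr held 1299, 1524 and 1062 CPM, against a mean of 1184 CPM. How these differences stand without replicate 2 was not tested. An unadjusted p under 0.05 was found for 5 of the 14, and for 5.29% of all genes. DESeq2 and voom also called 0.

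Of the 7 tested targets of CREB3-type factors, edgeR called 0 in either line against control, where 2 and 3 had an unadjusted p under 0.05. The shares of all genes with such a p were 7.62% and 11.2%. Sec23a, a coat protein of vesicles leaving the ER and a known CREB3L2 target, held 28.8 to 35.2 CPM in controls, 22.6 to 38.8 CPM in XBP1ΔDC and 25.4 to 33.5 CPM in the double line. Its log2 fold changes were -0.10 (SE 0.16) and -0.16 (SE 0.17). The genes with an unadjusted p under 0.05, named after their values were seen, were Sec31a and Edem1 in XBP1ΔDC, both lower, and Sec31a, Kdelr2 and Herpud1 in the double line, of which Herpud1 was higher. Sec31a, another vesicle coat protein, had log2 fold changes of -0.36 (edgeR adjusted p = 0.0535) and -0.37 (edgeR adjusted p = 0.102), and its pools did not overlap the controls in either line. Kdelr2, a retrieval receptor for ER proteins, had values of -0.16 and -0.37 (edgeR adjusted p = 0.718 and 0.111), and its pools lay below all controls in the double line alone. Edem1 had values of -0.35 (edgeR adjusted p = 0.0407, under the fold limit) and -0.13. Among 6 other substrates and escorts of the site 1 and site 2 proteases edgeR also called 0 against control. There 4 and 2 had an unadjusted p under 0.05, against the same 7.62% and 11.2% of all genes. Srebf2, the sterol-responsive factor, changed by -0.41 in XBP1ΔDC (edgeR adjusted p = 0.0176), under the fold limit, and by -0.16 in the double line (edgeR adjusted p = 0.509).

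The relatives of the sensors gave no call in any comparison by edgeR, and none of the 5 tested had an unadjusted p under 0.05. They were Creb3l1, Crebzf and the eIF2α kinases Eif2ak1, Eif2ak2 and Eif2ak4, with log2 fold changes between -0.26 and 0.36 against control. Creb3l1, the closest relative of Creb3l2, held 0.746 to 1.92 CPM in controls, 1.24 to 2.33 CPM in XBP1ΔDC and 0.695 to 2.03 CPM in the double line, so its groups overlapped. Ern2, the epithelial IRE1, had counts of 12, 0 and 2 in the double line and 0 elsewhere. Creb3l3 had 0 counts in all 11 pools and Creb3l4 had 6 to 17, and these 3 genes did not pass the filter.

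**Figure D4:**
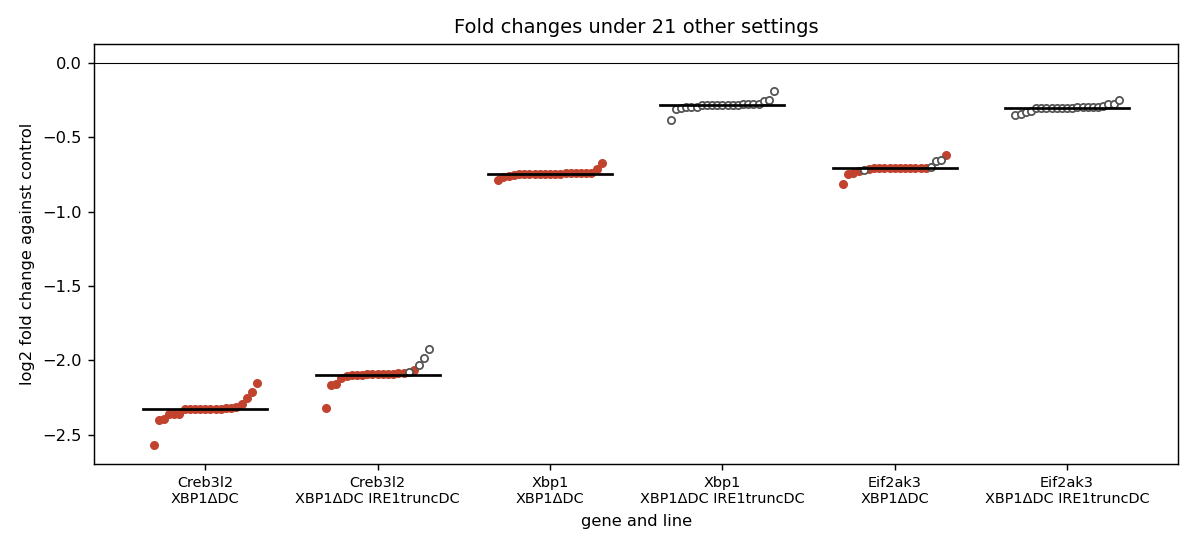
Log2 fold changes against control (vertical axis) of Creb3l2, Xbp1 and Eif2ak3 in each line (horizontal axis) under 21 other settings (points, sorted by value; filled red where called) with the value as reported as a black line. Creb3l2 in XBP1ΔDC keeps its call throughout, between -2.57 and -2.15, as does Xbp1, while Eif2ak3 in XBP1ΔDC is called in 17 settings.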

How the data were processed

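The cDC1s were sorted from pooled tumors, and their RNA was amplified with SMART-seq v4 and sequenced single-end. As deposited, the values are raw counts per gene, which the authors made with Trimmomatic 0.39, FastQC 0.11.8, STAR 2.7.3a and HTSeqCount on mm10, with an annotation that is not given in the sources used here. A deposited table of normalized log2 values (limma 3.42.2) was not used. Groups and numbers are from the labels, equal numbers do not mark shared animals, and p-values measure the spread between pools. The members and gene lists were chosen with earlier results of these data known.

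The fit used edgeR 4.0.16 under R 4.3.3 (TMM, 1 quasi-likelihood fit of the 3 groups) on genes above 1 CPM in at least 4 pools, with Benjamini-Hochberg adjustment over all of them. The SE is the log2 fold change divided by the square root of F. The calls and fold changes of the fit were tested on simulated data, and this SE was not. Alternatives used DESeq2 1.42.0, voom in limma 3.58.1, other scalings, filters and thresholds, a replicate block and leaving out each pool. Exon lengths were taken from GENCODE vM21 (GRCm38). The files pair reads with genes by symbol, and whether the counting used strand is not given in the sources used here. Named genes were the 9 members, pathway genes that were called, 7 pathway genes and the relatives fixed by name, and the 3 genes most correlated with each called member (log2 CPM, prior count 2). Beyond these, the pathway genes Ppp1r15b, Sec31a, Kdelr2 and Edem1 and some markers were named for an unadjusted p under 0.05, after their values were seen. No pool was left out.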

Additional observations from a re-analysis of the deposited data

How the results depend on the processing

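Each of the 27 fold changes of the 9 genes was recomputed under 21 other settings, and 539 of 567 values kept their direction and their side of the threshold. Creb3l2 and Xbp1 in XBP1ΔDC were called in all 21 settings, Eif2ak3 in XBP1ΔDC and Creb3l2 in the double line in 17 each. The sign changed for 20 values and 8 lost a call. Between the lines, Atf6 and Mbtps1 were each 0.0040 with DESeq2 and with size factors in edgeR, and 0.0035 and 0.0038 without the filter. Leaving out 1 pool gave Ern1 -0.3087 to 0.0095, Mbtps1 -0.0707 to 0.0001 and Mbtps2 -0.1021 to 0.1677 in XBP1ΔDC, Creb3 -0.0190 to 0.1270 and Mbtps2 -0.0218 to 0.5414 in the double line, and Atf6 -0.0818 to 0.0643, Mbtps1 -0.0289 to 0.0238 and Mbtps2 -0.0935 to 0.4719 between the lines. The median of all genes stayed within 0.1 of 0 under every scaling.

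In XBP1ΔDC, 98 genes passed without a fold limit against 54, and 8, 7 and 8 pathway genes passed with DESeq2, with only the 2 groups in the fit and without a fold limit, against 4. In the double line, the 23 genes called became 94 with DESeq2 (46.8% lower, against 69.6% in edgeR), 15 with only the 2 groups and 39 without a fold limit, and the 4 pathway genes became 8 with DESeq2 and 2 with only the 2 groups. Between the lines DESeq2 called 36 genes against 8. DESeq2 put 84% of its calls lower in XBP1ΔDC, against 94.4%, and 27.8% between the lines, against 0%. The causes of these shifts were not tested. Leaving out 1 pool gave 37 to 57, 12 to 23 and 4 to 10 genes in the 3 comparisons, 2 to 3, 0 to 1 and 0 of the 9 genes, and 3 to 7, 2 to 4 and 0 pathway genes. The pathway count in XBP1ΔDC was 7 without XBP1ΔDCIRE1truncDC replicate 2. That in the double line was 2 without control replicate 1, 2 or 4, XBP1ΔDC replicate 1, 2 or 4, or XBP1ΔDCIRE1truncDC replicate 1 or 3. The gene count there was 12 to 15 without control replicate 1 or 2 or XBP1ΔDCIRE1truncDC replicate 1 or 3. Between the lines it was 4 or 5 without those pools or XBP1ΔDC replicate 1, 3 or 4.

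Deviations of same-numbered pools of different groups correlated between -0.26 and 0.133, and those of other-numbered pools between -0.202 and 0.307. The labels do not say what an equal number marks, and whether such pools share a preparation was not tested. With the replicate number as a block, 11 genes, 0 of the 9 genes and 2 pathway genes were called in the double line, and 3 genes between the lines. Eif2ak3 in XBP1ΔDC was then -0.72 (adjusted p = 0.0688) and Creb3l2 in the double line -2.03 (adjusted p = 0.11) in edgeR. Of the 9 genes, Creb3l2, Ern1 and Mbtps2 had the lowest CPM in controls and the widest SDs within groups.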
